A study of Mus musculus with 13 samples.

Results

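The genes described here are 48 axon guidance ligands and receptors, a fixed list of 19 ligands and 29 receptors, taken at their mm9 positions out of 22367 protein-coding genes. They belong to the ephrin system (22 genes), the slit system (7 genes), the netrin system (7 genes) and the semaphorin system (12 genes). The study asked where AEBP2, an accessory subunit of the Polycomb repressive complex PRC2, binds in mouse embryonic stem cells (mESCs), and whether those sites carry H3K27me3, the histone mark that PRC2 deposits. Data consisted of ChIP-seq peak lists, in which a peak is a stretch where precipitated DNA piled up above background. Endogenous AEBP2 and H3K27me3 were each profiled in 2 replicates of a wild-type 129/1 XY ES cell line, grown with serum and LIF on gelatine, using an AEBP2 antibody raised for the study and an antibody labelled for H3K27 that the methods name as H3K27me3. FS2-AEBP2, AEBP2 with an N-terminal Flag-StrepII tag expressed from a pCAG plasmid, was profiled in 1 sample with an anti-FS2 antibody and blocked beads, so it has no replicate. The methods name E14 cells for the tagged protein, whereas its label gives the 129/1 XY line. SUZ12, the inputs and the AEBP2 KO cells were not analysed here.

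Axon guidance molecules steer growing axons towards or away from targets. Ephrins are membrane-bound ligands of the Eph receptor tyrosine kinases, and Slits are secreted repellents read by Robo receptors. Netrins attract through DCC and repel through Unc5 receptors, and most class 3 semaphorins act through neuropilins that pair with A-type plexins. In mESCs, CpG-rich promoters of many developmental regulators are known targets of PRC2.

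The lists held 2877 (AEBP2 replicate 1), 6779 (AEBP2 replicate 2), 2884 (FS2-AEBP2), 14112 (H3K27me3 replicate 1) and 9275 (H3K27me3 replicate 2) peaks on the chromosomes used. No read counts come with the lists, so depth is unknown and a promoter without a peak may still be bound. Of 8 genes that mark ES cells, among them Pou5f1 and Nanog, 0 had a promoter peak of H3K27me3 in either replicate, 0 had one of endogenous AEBP2, and 1, Klf2, had one of FS2-AEBP2. Over all protein-coding promoters the shares were 17.0% and 17.7% for H3K27me3, 9.08% and 22.3% for AEBP2, and 6.53% for FS2-AEBP2. With just 8 genes, of which 2 had a CpG-island-like region (defined below), counts of 0 or 1 are not far from these shares. Peak lists do not measure expression, so these counts describe the marks at these promoters only.

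The members differed widely in the density of CpG dinucleotides at their starts, and the sequence just upstream of the start is shown for the member with the most and the one with the fewest CpG in each of 4 families. Each line gives the 250 bases upstream of the annotated start of the gene in mm9, read 5′ to 3′ along the gene, with every CG dinucleotide in capitals. CG reads the same on both strands, and its occurrences do not overlap.
Epha8, chr4:136512732-136512981, minus strand: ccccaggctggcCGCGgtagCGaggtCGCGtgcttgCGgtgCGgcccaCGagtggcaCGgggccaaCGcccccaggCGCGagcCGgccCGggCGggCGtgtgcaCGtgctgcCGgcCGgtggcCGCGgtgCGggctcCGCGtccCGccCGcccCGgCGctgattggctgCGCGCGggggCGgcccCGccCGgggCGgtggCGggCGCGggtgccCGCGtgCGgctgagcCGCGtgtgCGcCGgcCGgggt
Epha10, chr4:124557893-124558142, plus strand: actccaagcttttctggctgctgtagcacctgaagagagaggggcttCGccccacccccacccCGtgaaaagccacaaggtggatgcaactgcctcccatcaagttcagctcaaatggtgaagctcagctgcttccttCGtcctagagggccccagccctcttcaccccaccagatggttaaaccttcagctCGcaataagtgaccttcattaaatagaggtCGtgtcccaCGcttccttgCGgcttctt
Robo2, chr16:74412071-74412320, minus strand: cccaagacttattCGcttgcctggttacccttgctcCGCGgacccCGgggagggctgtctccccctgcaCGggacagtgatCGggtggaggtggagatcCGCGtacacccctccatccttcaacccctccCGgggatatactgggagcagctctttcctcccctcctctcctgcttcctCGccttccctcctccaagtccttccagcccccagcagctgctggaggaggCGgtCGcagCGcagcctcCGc
Robo4, chr9:37209232-37209481, plus strand: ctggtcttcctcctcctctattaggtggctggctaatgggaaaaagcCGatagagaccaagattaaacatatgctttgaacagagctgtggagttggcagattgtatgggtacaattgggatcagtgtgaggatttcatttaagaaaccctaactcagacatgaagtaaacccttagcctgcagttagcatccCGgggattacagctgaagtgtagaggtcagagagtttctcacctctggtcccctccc
Unc5d, chr8:30329811-30330060, minus strand: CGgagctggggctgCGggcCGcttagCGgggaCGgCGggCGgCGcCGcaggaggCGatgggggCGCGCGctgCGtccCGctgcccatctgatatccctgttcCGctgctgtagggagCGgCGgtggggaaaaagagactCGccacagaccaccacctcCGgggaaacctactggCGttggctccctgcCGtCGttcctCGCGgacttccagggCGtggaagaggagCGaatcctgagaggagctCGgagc
Unc5c, chr3:141128278-141128527, plus strand: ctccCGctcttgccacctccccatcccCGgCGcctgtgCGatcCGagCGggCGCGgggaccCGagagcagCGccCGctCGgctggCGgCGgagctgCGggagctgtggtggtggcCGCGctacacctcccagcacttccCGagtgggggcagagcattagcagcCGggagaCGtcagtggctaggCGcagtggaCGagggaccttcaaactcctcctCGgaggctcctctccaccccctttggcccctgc
Sema3a, chr5:13125343-13125592, plus strand: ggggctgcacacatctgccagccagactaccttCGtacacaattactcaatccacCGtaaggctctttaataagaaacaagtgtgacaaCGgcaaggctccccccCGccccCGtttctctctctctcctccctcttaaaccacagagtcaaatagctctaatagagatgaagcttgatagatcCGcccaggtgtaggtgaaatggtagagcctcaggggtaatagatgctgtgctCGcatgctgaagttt
Sema3f, chr9:107612807-107613056, minus strand: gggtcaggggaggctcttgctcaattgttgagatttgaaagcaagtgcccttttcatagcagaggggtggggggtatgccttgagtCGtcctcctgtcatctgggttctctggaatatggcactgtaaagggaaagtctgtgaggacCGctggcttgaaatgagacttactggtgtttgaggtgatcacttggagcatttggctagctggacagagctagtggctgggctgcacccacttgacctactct
The upstream stretch of Epha8 held 46 CpG, a number reached by 0.411% of all protein-coding promoters over the same 250 bases, and that of Epha10 held 7, reached by 55.8%. Robo2 held 14 CpG (reached by 35.6%) and Robo4 held 2 (reached by 83.4%). Unc5d held 28 (reached by 8.35%) and Unc5c 23 (reached by 15.2%), so even the poorest of the Unc5 promoters was above the median of 8 over all promoters. Sema3a shared the highest number of its family, 7 (reached by 55.8%), with Sema3c and Sema3e. Sema3f had the lowest over these 250 bases, 2 (reached by 83.4%), although its promoter window carried peaks in all 5 lists. Over the window of 1 kb on either side of the start, however, Sema3f held 120 CpG, more than 85.6% of all promoters. The CpG-island-like region of Sema3f lies almost wholly downstream of the start (1660 bp, chr9:107611181-107612840, minus strand, with the start at 107612806).

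H3K27me3 peaks overlapped most of the guidance promoters. A promoter was taken as 1 kb on either side of the start, and it counted as having a peak when at least 1 bp overlapped. H3K27me3 peaks were found at 31 of the 48 promoters (64.6%) in replicate 1, against 17.0% of all protein-coding promoters, and at 35 (72.9%) in replicate 2, against 17.7%. All 31 of replicate 1 were also called in replicate 2, as were 87.8% of the replicate 1 calls at all promoters, so 64.6% of the members had the mark in both replicates, against 15.0% of all promoters. Endogenous AEBP2 was found at 16 (33.3%) in replicate 1, against 9.08%, and at 28 (58.3%) in replicate 2, against 22.3%, with 15 (31.2%) in both, against 8.44%. The same 15 had H3K27me3 in both replicates too, so that 31.2% of the members carried all 4 peaks, against 5.88% of all promoters. Over all promoters with AEBP2 in both replicates, 69.7% also had H3K27me3 in both. FS2-AEBP2 was found at 14 (29.2%), against 6.53%. These are counts over a complete list of genes, so the spread between replicates is the only error given. It was 4 genes for H3K27me3 and 12 genes for AEBP2, whose lists differ in number of peaks. In each of the 5 lists the share among the members was above that of all promoters. No test was made of the difference.

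**Figure D1:**
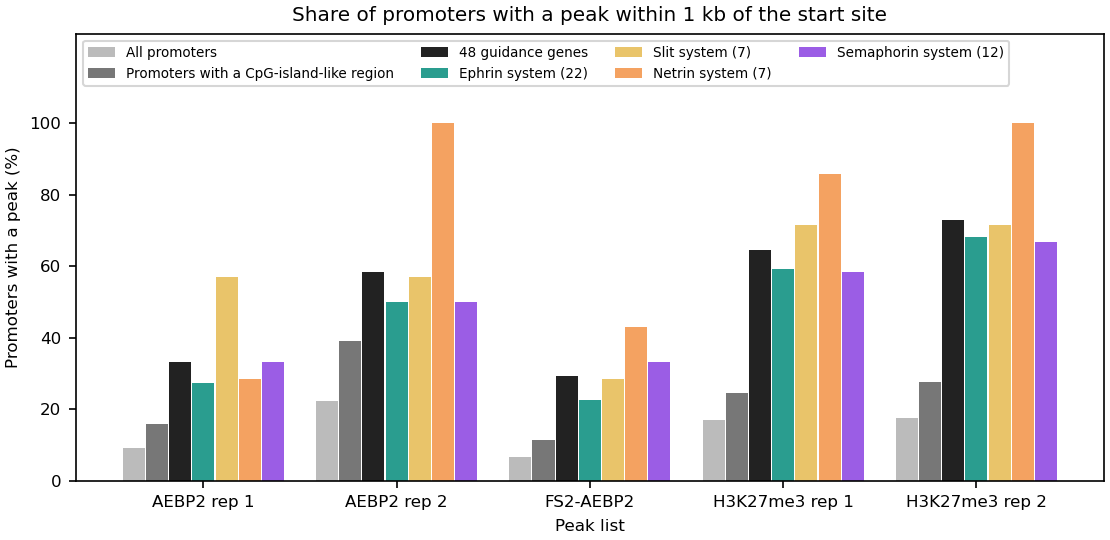
Share of promoters (%, y axis) with at least 1 bp of a peak within 1 kb of the start, in each of the 5 peak lists (x axis), for all protein-coding promoters (light grey), promoters with a CpG-island-like region (dark grey), the 48 guidance genes (black) and the 4 systems (colours, number of genes in brackets). The black bars stand above both grey bars in every list, and the netrin bar reaches 7 of 7 genes in AEBP2 replicate 2 and H3K27me3 replicate 2.

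The members were richer in CpG than other promoters. CpG-island-like regions, 500-bp windows with a GC content of 55% or more and a CpG ratio, observed over expected, of 0.65 or more, touched 43 of the 48 promoters (89.6%), against 12310 of all 22367. Among promoters with such a region, the shares were 16 of 43 (37.2%, against 16.0% of all such promoters) for AEBP2 replicate 1, 27 of 43 (62.8%, against 39.0%) for AEBP2 replicate 2, 14 of 43 (32.6%, against 11.4%) for FS2-AEBP2, and 30 of 43 (69.8%, against 24.5%) and 34 of 43 (79.1%, against 27.5%) for the H3K27me3 replicates. The members therefore stood above CpG-island-like promoters in every list as well. These promoters were not matched on CpG number.

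The 48 genes fell into 10 combinations of lists. No peak in any list was the most frequent, with 13 genes (27.1%, against 68.5% of all promoters), namely Epha1, Epha2, Epha4, Ephb3, Ephb4, Efna1, Efna4, Robo1, Robo4, Sema3a, Sema3b, Sema3e and Plxna3. AEBP2 in replicate 2 alone with H3K27me3 in both replicates followed with 11 genes, Epha3, Epha6, Efna2, Efnb1, Robo2, Ntn4, Unc5a, Unc5d, Dcc, Plxna1 and Nrp2. Peaks in all 5 lists were found at 10 genes (20.8%, against 4.57%), Epha8, Ephb1, Efna3, Efna5, Slit2, Unc5b, Unc5c, Sema3f, Plxna4 and Nrp1. A further 5 genes, Epha5, Efnb2, Slit1, Slit3 and Plxna2, carried the endogenous AEBP2 and H3K27me3 peaks of both replicates without FS2-AEBP2. The remaining 9 were split among H3K27me3 of replicate 2 only (Ephb6, Efnb3 and Sema3c), H3K27me3 of both replicates only (Epha10 and Ephb2, 4.17%, against 4.35% of all promoters), and 1 gene each for Epha7, Robo3, Ntn1 and Sema3d. For combinations without a percentage, the share over all promoters is not given here, so whether those counts are unusual cannot be told. The AEBP2 list of replicate 2 was also the longer, with 6779 peaks against 2877.

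**Figure D2:**
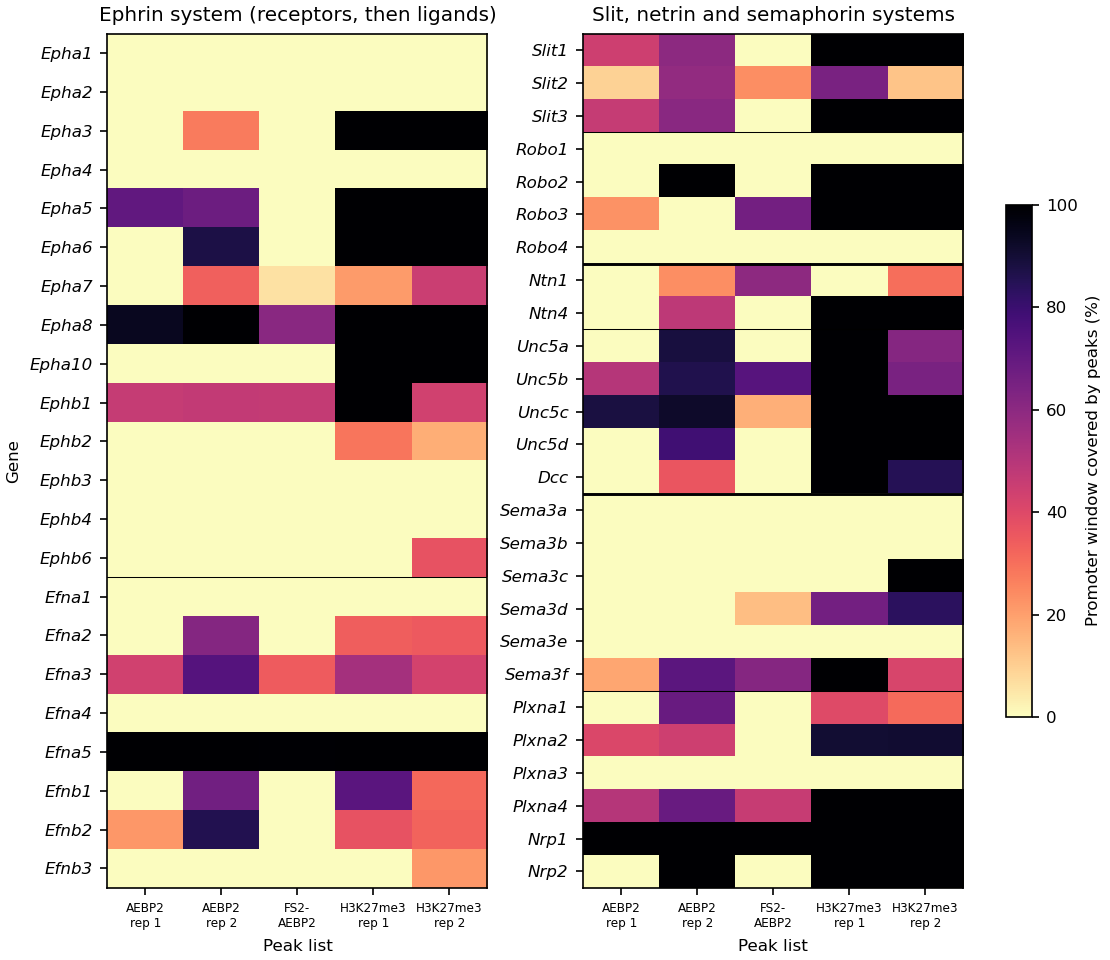
Percentage of the 2001-bp promoter window covered by peaks (colour scale, 0 to 100%) for each of the 48 genes (rows) in each of the 5 lists (columns). Thick lines part the systems and thin lines part receptors from ligands. Efna5 and Nrp1 are dark across all 5 columns, and 13 rows, such as Epha1 and Robo4, are empty.

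At the guidance genes, AEBP2 was found nowhere without H3K27me3 in the same window. None of the 48 promoters (0) had an AEBP2 or FS2-AEBP2 peak without an H3K27me3 peak in at least 1 replicate, against 11.7% of all promoters. AEBP2 of both replicates without H3K27me3 was likewise found at 0, against 2.40%. Among the 13 members without H3K27me3, 0 had AEBP2 in replicate 2, against 13.9% of all promoters without H3K27me3. With just 13 such genes, 9 of them with a CpG-island-like region, a count of 0 is not far from that share. The low count over all 48 thus rests largely on how few members lacked the mark. Conversely, of the 31 members with H3K27me3 in both replicates, AEBP2 of at least 1 replicate was found at 28 (90.3%), against 69.9% of all such promoters, and neither AEBP2 nor FS2-AEBP2 at 2 (6.45%), against 29.1%. By list, these 31 held AEBP2 at 16 (51.6%, against 40.9%) in replicate 1 and at 27 (87.1%, against 68.3%) in replicate 2, and FS2-AEBP2 at 13 (41.9%, against 38.2%). Set beside promoters that also had H3K27me3 in both replicates, the members were thus close to the background for FS2-AEBP2 and above it for AEBP2 replicate 2. With a CpG-island-like region required as well, 30 members remained, with AEBP2 at 16 (53.3%, against 45.9%) and 26 (86.7%, against 75.8%) and FS2-AEBP2 at 13 (43.3%, against 42.7%).

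Nearly all AEBP2 peaks at the members overlapped an H3K27me3 peak, and most of them lay wholly inside it. Of the 28 AEBP2 peaks of replicate 2 at members, 0 lay outside H3K27me3 in replicate 1, where 53.4% of such peaks at all promoters did, and 20 (71.4%, against 36.7%) were wholly inside. Against H3K27me3 replicate 2, 0 of the 28 lay outside (against 53.3%) and 16 (57.1%, against 33.9%) were wholly inside, with the least overlapped having 18.8% of its length in the mark. The shares over all promoters include promoters without H3K27me3, whereas all 28 members had it in at least 1 replicate. Of the 4983 peaks at all promoters, 2662 and 2657 lay outside replicates 1 and 2, and 1828 and 1688 were wholly inside. Most that overlapped the mark were thus wholly inside there too, and the members did not exceed them in this. AEBP2 peaks of replicate 1 were wholly inside H3K27me3 replicate 1 at 14 of 16 members (87.5%, against 59.4%) and inside replicate 2 at 10 (62.5%, against 58.9%). Of the 2032 such peaks at all promoters, 670 and 643 lay outside replicates 1 and 2, and 1206 and 1197 were wholly inside. Among peaks that overlapped the mark, the share wholly inside was thus similar at the members for replicate 1 and lower for replicate 2. FS2-AEBP2 peaks were wholly inside at 13 of 14 (92.9%, against 81.7%) and at 9 (64.3%, against 1153 of 1460 over all promoters), the latter a smaller share than over all promoters. In replicate 1 of AEBP2, 1 of 16 peaks lay outside, against 33.0%. This was Efnb2, the ephrin-B2 ligand known from arteries, where a peak of 436 bp (chr8:8661067-8661502) spanned the start and both H3K27me3 peaks began further into the gene, 259 and 347 bp from the start. The AEBP2 peak of replicate 2 at Efnb2 was 2970 bp long and overlapped both. For FS2-AEBP2, 1 of 14 peaks lay outside H3K27me3 of replicate 1, at Ntn1, against 11.6% of all promoters.

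In the ephrin system, H3K27me3 was found at 13 and 15 of 22 promoters in replicates 1 and 2 (59.1% and 68.2%, against 17.0% and 17.7% of all promoters), AEBP2 at 6 and 11 (27.3% and 50.0%, against 9.08% and 22.3%), and FS2-AEBP2 at 5 (22.7%, against 6.53%). No peak was found at 7 (31.8%, against 68.5%). All 22 had a CpG-island-like region. Of all promoters with such a region, 24.5% and 27.5% had H3K27me3, 16.0% and 39.0% AEBP2, 11.4% FS2-AEBP2 and 50.7% no peak. Beside these shares, AEBP2 of replicate 2 was less far above the background. With at least 50% of the window covered, H3K27me3 of replicate 2 was found at 6 (27.3%, against 12.3% of all promoters). The A-type receptors had H3K27me3 at 6 of 9 in both replicates and AEBP2 at 2 and 5. The B-type receptors had it at 2 and 3 of 5, and AEBP2 was called at 1 of 5, Ephb1, in all 3 AEBP2 lists. Among the ligands, H3K27me3 marked 3 of 5 A-type ephrins in both replicates and 2 and 3 of 3 B-type ephrins.

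Efna5, the GPI-anchored ligand that patterns the retinotectal map, had the fullest cover of the ephrin system. Its AEBP2 peaks were 3794 bp (chr17:63228464-63232257) in replicate 1 and 4297 bp (chr17:63228121-63232417) in replicate 2, and its FS2-AEBP2 peak was 3027 bp (chr17:63228628-63231654). Its H3K27me3 peaks were 7038 bp (chr17:63224663-63231700) and 6612 bp (chr17:63225423-63232034), and both extended further into the gene than the AEBP2 peaks. All 5 peaks covered 99.4% or more of the promoter window, which held 187 CpG, more than 98.5% of all promoters. The AEBP2 score of Efna5 in replicate 1, 21, was above that of 92.8% of the peaks in that list, whereas its FS2-AEBP2 score, 6, was above only 26.7% of that list.

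Epha8, a receptor of the A-type ephrins, had AEBP2 peaks of 2131 bp (chr4:136511852-136513982) and 4444 bp (chr4:136510490-136514933). Around its start, whose upstream sequence is the most CpG-rich of the Eph receptors, FS2-AEBP2 was called as a pair of peaks of 1006 and 448 bp on either side, and neither contained the start itself. H3K27me3 extended over 10649 bp (chr4:136505188-136515836) in replicate 1 and 5867 bp (chr4:136509923-136515789) in replicate 2. In replicate 1 this peak scored above 98.2% of the list, and AEBP2 of replicate 1 above 16.3% of its own. In replicate 2 both ranked high, H3K27me3 above 94.3% and AEBP2 above 76.7% of their lists.

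Epha5, another A-type receptor, carried AEBP2 peaks of 1780 bp (chr5:84845037-84846816) and 2614 bp (chr5:84844150-84846763) that covered 70.5% and 67.8% of the window, both mostly downstream of the start. H3K27me3 covered the whole window, in peaks of 6869 bp (chr5:84842017-84848885) and 6605 bp (chr5:84841726-84848330). No FS2-AEBP2 peak met the window.

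Ephb1, a B-type receptor needed for the ipsilateral retinal projection, had the longest H3K27me3 peak of all members, 18867 bp in replicate 1, reaching from 6724 bp upstream to 12142 bp downstream of the start. In replicate 2 the peak was 7397 bp long and began 132 bp downstream of the start. All 3 AEBP2 lists placed a peak of 2439 to 3260 bp that began 59 to 78 bp downstream of the start and ended 2516 to 3318 bp into the gene. The upstream edges of these 3 peaks, from the AEBP2 and the anti-FS2 antibody, lay within 19 bp of each other.

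The pseudokinase receptor Epha10 and Ephb2 were the members with H3K27me3 in both replicates and no AEBP2 at the start. At Epha10 the H3K27me3 peaks were 14243 bp (chr4:124555965-124570207) and 7186 bp (chr4:124556690-124563875) and covered the whole window. AEBP2 peaks of 1356 and 1673 bp were instead found 13207 and 12826 bp into the gene, and both lay wholly inside further H3K27me3 peaks of the gene, of 3266 bp in replicate 1 and 6830 bp in replicate 2. An FS2-AEBP2 peak of 786 bp lay 4505 bp in, at another annotated start and inside the promoter's H3K27me3 peaks. At Ephb2 the H3K27me3 peaks were 2545 and 2186 bp long and covered 28.7% and 17.0% of the window, which held 183 CpG, so a high CpG number did not always come with an AEBP2 peak.

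Replicates of H3K27me3 disagreed at 4 genes of the whole list, each called in replicate 2 only. At Ephb6, a pseudokinase receptor, the peak was 1247 bp (chr6:41555742-41556988) and scored above 28.0% of the list. At Efnb3, the ephrin-B3 ligand of the spinal midline, it was 1337 bp (chr11:69371801-69373137) and scored above 5.35%. At the semaphorin Sema3c, by contrast, it was 4357 bp (chr5:17078349-17082705), covered the whole window and scored above 80.2% of the list. Replicate numbers here follow the sample records. The names of the deposited H3K27me3 lists appear to swap them, so it is uncertain which list is replicate 1.

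In the slit system, 5 of 7 promoters had H3K27me3 in each replicate (71.4%, against 17.0% and 17.7% of all promoters), 4 had AEBP2 in each replicate (57.1%, against 9.08% and 22.3%), and 2 had FS2-AEBP2 (28.6%, against 6.53%). Each of the 3 Slits had endogenous AEBP2 and H3K27me3 in all 4 lists. That number fell to 0 when at least 50% of the window had to be covered, against 3.63% of all promoters. With peaks at or above the median score it fell to 1, against 3.31%. Of the 4 Robo receptors, H3K27me3 marked 2, AEBP2 1 in each replicate and FS2-AEBP2 1. Robo1 and Robo4 had no peak in any list. The difference between ligands and receptors was not tested.

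At Slit3, the AEBP2 peaks were 929 bp (chr11:34934743-34935671) and 1917 bp (chr11:34934514-34936430), and the H3K27me3 peaks were 5797 bp (chr11:34933664-34939460) and 5401 bp (chr11:34933599-34938999). At Slit1, the AEBP2 peaks were 890 bp (chr19:41817452-41818341) and 1198 bp (chr19:41817183-41818380), within H3K27me3 peaks of 10312 bp (chr19:41811374-41821685) and 7520 bp (chr19:41812848-41820367). The mark at Slit1 in replicate 1 scored above 99.4% of its list, the highest rank of any member in that list. At Slit2, the AEBP2 peaks of 2497 and 3488 bp reached 3311 and 3320 bp into the gene, and the first began 815 bp downstream of the start, so it covered just 9.30% of the window. An FS2-AEBP2 peak of 1816 bp made Slit2 the only Slit found in all 5 lists.

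Robo2, the receptor that steers retinal and commissural axons, was the one member with AEBP2 at a promoter that lacked a CpG-island-like region. Its window held 71 CpG, and the AEBP2 peak of replicate 2 (2903 bp, chr16:74410466-74413368) covered all of it, inside H3K27me3 peaks of 3524 bp (chr16:74409890-74413413) and 6766 bp (chr16:74408923-74415688). Robo3, which lets commissural axons cross the midline, was the only member with AEBP2 in replicate 1 and not in replicate 2. That peak was 454 bp (chr9:37240247-37240700) and had the lowest score of the list, 1. FS2-AEBP2 covered 66.2% of the window in a peak of 1684 bp (chr9:37240437-37242120), and H3K27me3 covered all of it, in peaks of 5897 and 8256 bp. Robo4, a receptor known from endothelium whose start lies 31278 bp from that of Robo3, had 21 CpG in its window and no peak.

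In the netrin system, H3K27me3 was found at 6 and 7 of 7 promoters in replicates 1 and 2 (85.7% and 100%, against 17.0% and 17.7% of all promoters), AEBP2 at 2 and 7 (28.6% and 100%, against 9.08% and 22.3%), and FS2-AEBP2 at 3 (42.9%, against 6.53%). No gene was without a peak, against 68.5% of all promoters. All 7 had a CpG-island-like region. Of all promoters with such a region, 24.5% and 27.5% had H3K27me3, 16.0% and 39.0% AEBP2, 11.4% FS2-AEBP2 and 50.7% no peak. The AEBP2 count of replicate 2 fell to 4 (57.1%, against 8.69% of all promoters) with at least 50% of the window covered, as many as in the slit system. With equal numbers of peaks per replicate it also fell to 4 (57.1%, against 10.4%). The 4 Unc5 repulsive receptors all had H3K27me3 in both replicates and AEBP2 in replicate 2, and Dcc, the attractive receptor, did so as well.

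Unc5c had AEBP2 peaks of 2158 bp (chr3:141127769-141129926) and 3466 bp (chr3:141127687-141131152) that covered 88.0% and 92.1% of its window. The H3K27me3 peaks there, 7254 bp (chr3:141124122-141131375) and 7533 bp (chr3:141124001-141131533), had edges within 158 bp of each other. The FS2-AEBP2 peak of Unc5c was just 335 bp (chr3:141127682-141128016), upstream of the start, beginning 5 bp from the AEBP2 peak of replicate 2.

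At Unc5b, AEBP2 of replicate 1 began at the start and ran 3526 bp into the gene (3528 bp, chr10:60290803-60294330), and replicate 2 gave the longest AEBP2 peak of any member, 5737 bp (chr10:60289314-60295050). FS2-AEBP2 and H3K27me3 of replicate 2 were each called as a pair of peaks with a gap over the start, of 3936 and 751 bp and of 3897 and 2603 bp. H3K27me3 of replicate 1 was a single peak of 7228 bp (chr10:60290265-60297492). Unc5d had AEBP2 in replicate 2 only, 2406 bp (chr8:30327981-30330386), under H3K27me3 peaks of 10368 bp (chr8:30325177-30335544) and 10498 bp (chr8:30324943-30335440), the latter the longest of any member in replicate 2.

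Netrin-1 (Ntn1), the midline attractant, was the least marked gene of its system. H3K27me3 was called in replicate 2 only, as a peak of 608 bp (chr11:68214441-68215048) upstream of the start that scored above 5.35% of the list. AEBP2 of replicate 2 (1716 bp, chr11:68212083-68213798) and FS2-AEBP2 (1521 bp, chr11:68212996-68214516) lay downstream of and over the start, and H3K27me3 of replicate 1 began 1767 bp into the gene. The other netrin, Ntn4, had H3K27me3 over its whole window in both replicates and an AEBP2 peak of 1531 bp in replicate 2.

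**Figure D3:**
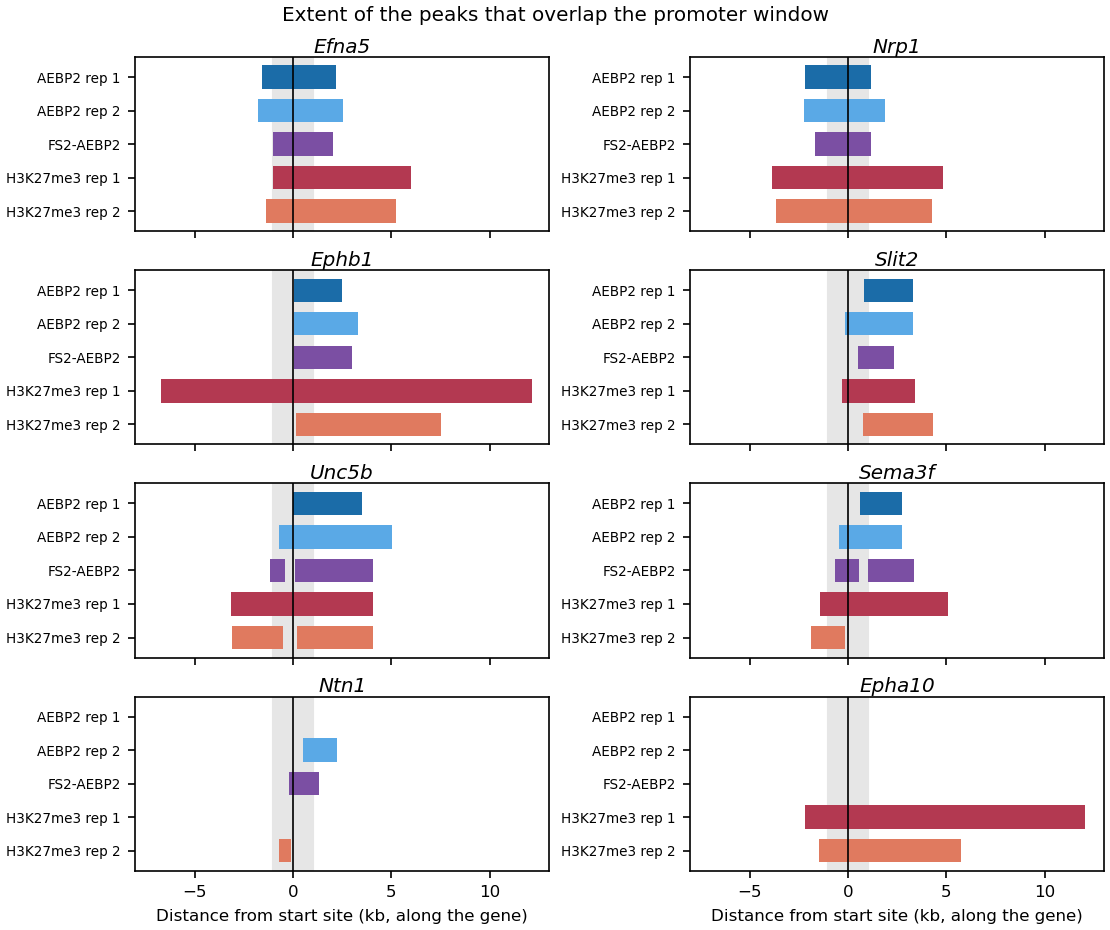
Extent of the peaks that overlap the promoter window at 8 genes, as distance from the start in kb along the gene (x axis), with 1 row for each of the 5 lists. The grey band is the window of 1 kb on either side. H3K27me3 reaches beyond AEBP2 in the gene at Efna5 and Nrp1, FS2-AEBP2 and H3K27me3 of replicate 2 leave a gap at the start of Unc5b, and Epha10 has H3K27me3 alone.

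In the semaphorin system, 7 and 8 of 12 promoters had H3K27me3 (58.3% and 66.7%, against 17.0% and 17.7% of all promoters), 4 and 6 had AEBP2 (33.3% and 50.0%, against 9.08% and 22.3%), and 4 had FS2-AEBP2 (33.3%, against 6.53%). More receptors than ligands carried H3K27me3 and endogenous AEBP2, while FS2-AEBP2 was found at 2 of each. Of the 6 receptors (plexins and neuropilins), H3K27me3 was found at 5 in both replicates and AEBP2 at 3 and 5, and of the 6 class 3 semaphorins on the list H3K27me3 was found at 2 and 3 and AEBP2 at 1, Sema3f, in both. This difference was not tested either. Over all 4 systems, the 29 receptors had H3K27me3 at 20 (69.0%) and 21 (72.4%) and AEBP2 at 9 and 17, and the 19 ligands had H3K27me3 at 11 (57.9%) and 14 (73.7%) and AEBP2 at 7 and 11, with no steady order between them.

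Nrp1, the co-receptor of Sema3A, had a fully covered window in all 5 lists. Its AEBP2 peaks were 3373 bp (chr8:130880769-130884141) and 4091 bp (chr8:130880767-130884857), with upstream edges 2 bp apart, its FS2-AEBP2 peak was 2843 bp (chr8:130881304-130884146) and its H3K27me3 peaks were 8690 bp (chr8:130879134-130887823) and 7906 bp (chr8:130879334-130887239). Nrp2, the co-receptor of Sema3F, had AEBP2 at the start in replicate 2 only (2748 bp, chr1:62748164-62750911). In replicate 1 and in FS2-AEBP2, a peak was found 2029 and 2148 bp into the gene, outside the window and overlapping the H3K27me3 peaks of 6826 bp (chr1:62747948-62754773) and 7373 bp (chr1:62748045-62755417). Plxna4 had AEBP2 peaks of 1004 bp (chr6:32537224-32538227) and 2141 bp (chr6:32536433-32538573), and an FS2-AEBP2 peak of 1618 bp (chr6:32536267-32537884) that scored above 93.9% of its list, the highest FS2-AEBP2 rank of any member.

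Of the ligands, Sema3d had FS2-AEBP2 (268 bp, chr5:12383579-12383846) and no endogenous AEBP2, with H3K27me3 in both replicates (3841 and 4273 bp). Epha7 of the ephrin system likewise had FS2-AEBP2 in a peak of 122 bp (chr4:28740918-28741039), the shortest of any member, with AEBP2 in replicate 2 only (2355 bp). Sema3a, whose product repels sensory axons, had no peak at its annotated start. An H3K27me3 peak of 2894 bp (chr5:13398345-13401238) in replicate 2 covered 5 other annotated transcript starts, the nearest 273095 bp into the gene. Sema3b had H3K27me3 of 5425 and 4457 bp at the end of the gene, 7577 and 8892 bp from its start.

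Some members that start close to each other differed in their peaks. Others did not, such as Efna1 and Efna4, 56886 bp apart and both without a peak. Neighbouring promoters in general were not compared. Efna3, with peaks in all 5 lists, starts 15063 bp from Efna4 and 41823 bp from Efna1, and both of these had none. Sema3f, with peaks in all 5 lists, starts 101246 bp from Sema3b, which had none at its start. Epha8 starts 120828 bp from Ephb2, which had H3K27me3 alone.

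Median peak length was greater at the members than over all promoters in all 5 lists. Where a window held several peaks, the one that filled most of it was used. The median length was 2114 bp for AEBP2 replicate 1 against 1239.5 bp over all promoters with a peak in that list, and 2510 against 869 bp for AEBP2 replicate 2. It was 5808 against 4842 bp and 5401 against 3895 bp for H3K27me3 replicates 1 and 2, and 1569.5 against 1350 bp for FS2-AEBP2, which had 14 members and 1 sample. When the background was limited to CpG-island-like starts, its medians for H3K27me3 rose to 5263 and 4157.5 bp, nearer to the members. They were 1225 and 867 bp for AEBP2 and 1340 bp for FS2-AEBP2. Of the AEBP2 replicate 2 peaks, 0 of 28 at members lay outside H3K27me3 replicate 1, against 2662 of 4983 at all promoters. Whether the difference in length holds among peaks that overlapped the mark was not tested. The peaks mostly reached further downstream than upstream of the start, at the members as at all promoters. The opposite held at 3 of 16 members (18.8%, against 26.3% of all promoters with a peak) for AEBP2 replicate 1, at 3 of 28 (10.7%, against 26.5%) for replicate 2, and at 4 of 14 (28.6%, against 23.3%) for FS2-AEBP2. For H3K27me3 it held at 5 of 31 (16.1%, against 33.1%) and 9 of 35 (25.7%, against 32.3%). The start itself was inside the peak at 26 of 31 members (83.9%, against 78.3% of all promoters with a peak) for H3K27me3 replicate 1 and 20 of 35 (57.1%, against 64.5%) for replicate 2. For AEBP2 it was inside at 9 of 16 (56.2%, against 70.7%) and 22 of 28 (78.6%, against 76.6%), and for FS2-AEBP2 at 5 of 14 (35.7%, against 49.6%).

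**Figure D4:**
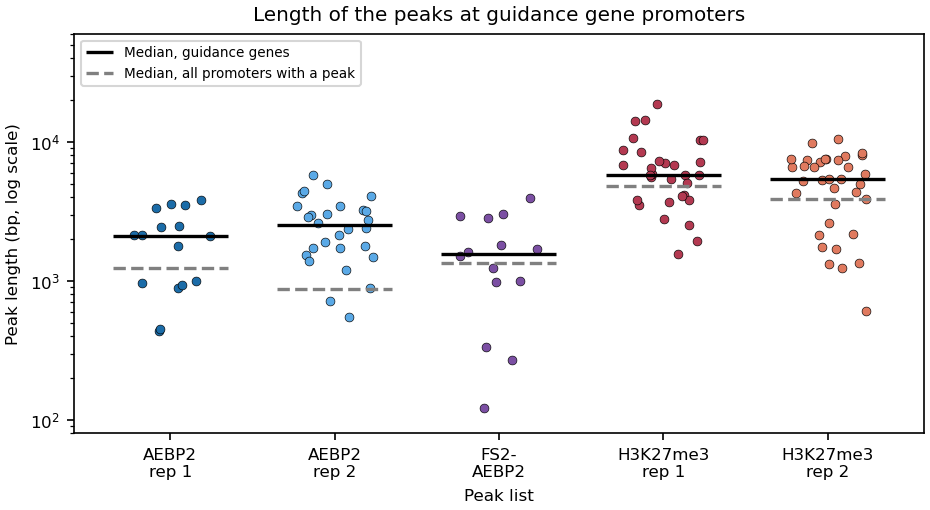
Length in bp (y axis, log scale) of the peak that filled most of the promoter window, 1 point per guidance gene with a peak, in each of the 5 lists (x axis). Black lines are medians of the guidance genes (2114, 2510, 1569.5, 5808 and 5401 bp) and dashed grey lines are medians of all promoters with a peak, which lie lower in every list.

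The number of CpG in the 2001-bp window varied with the peaks. It had a median of 102 over the 48 members, against 61 over all promoters, from 21 at Robo4 to the number at Plxna1, which was above that of 99.2% of all promoters. The 13 members with no peak had a median of 77 (21 to 129), the 5 with H3K27me3 and no AEBP2 list 87 (64 to 183), and the 30 with AEBP2 or FS2-AEBP2 in at least 1 list 118.5 (63 or more). The same classes over all promoters had medians of 36, 60 and 104. The ranges of the classes overlapped. Ephb3, with 129 CpG, and Epha4, with 109, had no peak, whereas Epha3 and Sema3d, with 63 each, had H3K27me3 in both replicates. Among the 14 members with 100 to 124 CpG, AEBP2 of replicate 2 was found at 12, against 46.7% of all promoters with that many, and among the 11 with 75 to 99 at 3, against 34.7%. Of the 5 members without a CpG-island-like region, Robo4, Sema3a, Sema3b and Plxna3 had no peak and Robo2 had peaks in 3 lists.

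**Figure D5:**
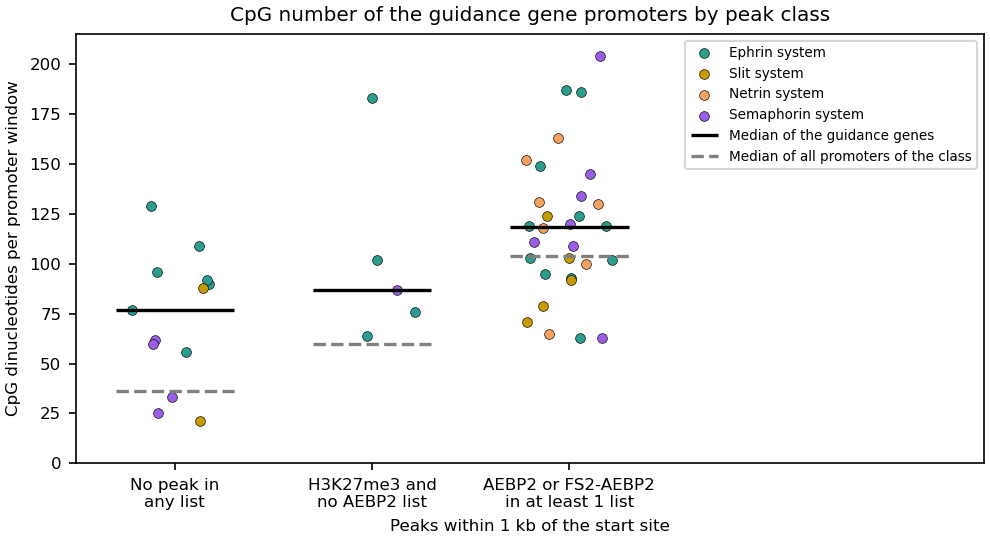
Number of CpG dinucleotides in the 2001-bp promoter window (y axis) of each guidance gene (points, coloured by system), by the peaks found within 1 kb of the start (x axis). Black lines are medians of the guidance genes (77, 87 and 118.5) and dashed grey lines are medians of all promoters of the class (36, 60 and 104), and the points of the classes overlap.

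Related gene lists gave a frame for these counts. Of 28 other guidance ligands and receptors (among them Sema3g, semaphorins of other classes, B-, C- and D-type plexins, other netrins and RGM proteins), H3K27me3 was found at 16 (57.1%) and 18 (64.3%), AEBP2 at 8 (28.6%) and 16 (57.1%), and FS2-AEBP2 at 9 (32.1%), all above the shares of all promoters. AEBP2 without H3K27me3 was found at 1, Plxnb1 (3.57%, against 11.7%). Of 29 cytoplasmic effectors that act below the receptors, H3K27me3 was found at 10 (34.5%) and 11 (37.9%), and AEBP2 of replicate 2 at 14 (48.3%), above the 17.0%, 17.7% and 22.3% of all promoters. AEBP2 of replicate 1 and FS2-AEBP2 were each found at 2 effectors (6.9%), near the 9.08% and 6.53% of all promoters. AEBP2 without H3K27me3 was found at 7 effectors (24.1%, against 11.7% of all promoters), among them Cdc42, Pak1 and Ptk2. A CpG-island-like region was present at 27 of the 29 effectors (93.1%). Of all promoters with such a region, 16.0% and 39.0% had AEBP2 in replicates 1 and 2, and 11.4% had FS2-AEBP2. Beside these shares, the effectors were lower for AEBP2 replicate 1 and FS2-AEBP2, and less far above for AEBP2 replicate 2. Among all promoters with such a region, 20.8% had AEBP2 or FS2-AEBP2 without H3K27me3, so the effectors were near that share. It was found at 0 of the 48 ligands and receptors, of which just 13 lacked H3K27me3.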

How the data were processed

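ChIP-seq peaks of WT mESCs were analysed for endogenous AEBP2 and H3K27me3 (2 replicates each) and FS2-AEBP2 (1 sample). Per the labels, the authors used Bowtie, SAMtools, Picard and MACS2 2.0.10.2 on mm9. They deposited for each peak its start, end and a whole-number score of unstated scale, and scores of different lists were not compared. The threshold and the control library are not given in the sources used here, and peaks were called per sample. The design text calls the samples biological replicates.

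Chromosomes 1 to 19, X and Y were kept, and 2 peaks of AEBP2 replicate 1 and 13 of H3K27me3 replicate 2 were left out. Starts were those of GENCODE vM1, and where a symbol had several entries the longest was taken. A peak counted where it overlapped the window of 1 kb on either side of the start by at least 1 bp. CpG-island-like regions were joined 500-bp windows, moved by 10 bp. The sequences and CpG numbers come from the mm9 genome. Counts, shares and medians describe complete gene lists and no test was made. The members and lists were chosen with earlier results of these data known. Peak values are given for the 3 best covered members of each system, for members that differed between H3K27me3 replicates, and for those with FS2-AEBP2 but not AEBP2 in both replicates or with a peak at another start only. Ephb1, Slit2, Efnb2, Epha10, Ephb2, Ntn4, Robo4 and Sema3b were added after their values were seen. Counting was tested on simulated data. The tools were Python 3.11.15, with its packages matplotlib 3.10.9, pandas 2.3.3 and numpy 2.4.6. Alternatives changed the window, the overlap, the score and the replicates.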

Additional observations from a re-analysis of the deposited data

How the results depend on the processing

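Of 62 counts over the 48 genes recomputed under another setting, 51 stayed within 1.5 times the value given, and of 248 counts for single systems 210 did. With at least 50% of the window covered, AEBP2 replicate 1 was found at 7 genes (14.6%, against 4.17% of all promoters), FS2-AEBP2 at 7 (against 2.92%), H3K27me3 replicate 2 at 22 (45.8%, against 12.3%), both AEBP2 replicates at 7 (against 3.84%), and both AEBP2 with both H3K27me3 replicates at 7 (against 3.63%). With peaks at or above the median score, FS2-AEBP2 was found at 8 (16.7%, against 3.94%), and with equal numbers of peaks per replicate, AEBP2 replicate 2 was found at 18 (37.5%, against 10.4%). AEBP2 in both replicates, 15 genes, ranged from 16 to 28 with 1 replicate left out (28 without AEBP2 replicate 1) and was 29 in either replicate. AEBP2 with H3K27me3 ranged from 15 to 27 with 1 replicate left out (27 without AEBP2 replicate 1) and was 29 in either replicate. Without AEBP2 replicate 1 and in either replicate, the shares over all promoters rose as well, though they stayed below those of the members. Both settings draw on the longer AEBP2 list of replicate 2, so the higher counts were not particular to the members. No paired analysis was possible because the results come from no test and the replicate numbers are not stated to pair samples. The labels number the AEBP2 and H3K27me3 samples alike, but which H3K27me3 list is replicate 1 is uncertain. The lists carry no read counts, so depth limits what a missing peak can show.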
